A study of Mus musculus with 3 samples.

Results

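The genes described here are 10 transport and secretory genes known from the visceral endoderm: Afp, Ttr, Apoa1, Apob, Apoe, Rbp4, Trf, Amn, Cubn and Dab2. They were chosen by gene name from the 55487 genes of the expression table, and each name matched 1 entry. RNA was taken from embryoid bodies (EBs), aggregates grown without LIF from the wild-type mouse ES cell line E14K, which model the formation of early lineages. Vehicle (DMSO) EBs were collected on day 3 and on day 4, and a further culture on day 4 after receiving, from the beginning of day 3, 30 μM C2 ceramide, a cell-permeable ceramide with a short acyl chain. The labels call the DMSO libraries controls. Each condition had 1 library and came from a single cell line, so no test between conditions could be made and only sizes are reported. Values are in TPM, which is scaled to transcript length and library size, beside the estimated counts behind them. Library totals were 33619197 counts for day 3 DMSO EBs, 35078820 for day 4 DMSO EBs and 35290094 for ceramide EBs.

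The visceral endoderm is the epithelium that surrounds the early mouse embryo and feeds it before the placenta works. It takes up proteins from outside by receptor-mediated endocytosis, digests them, and secretes carrier proteins of lipid, vitamin, hormone and iron transport toward the embryo, much as the liver does later. In this tissue Afp, Ttr and the apolipoproteins are among the classical products, and Cubn and Amn form the receptor for many of the proteins taken up. In the annotation of the table, 8 of the 10 genes carried the term extracellular space, which 4.42% of the 17655 genes in use carried. The term clathrin-coated pit was carried by Cubn, Amn, Dab2 and Trf, against 0.323% of the genes in use. In use here means at least 10 counts in at least 1 library, which all 10 genes had.

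Of the classical secreted products of visceral endoderm, Apoe, which many other cell types also make, was abundant, and Afp, Ttr, Apoa1 and Apob were barely detected in any of the libraries. The latter 4 genes had between 2 and 23 counts per library and never exceeded 0.676 TPM. Thus these 4 products do not mark the EBs as containing visceral endoderm, and the genes are named below for what they encode. Hnf4a, a nuclear receptor gene of differentiated visceral endoderm, was at 0, 0.819 and 0.328 TPM in day 3 DMSO EBs, day 4 DMSO EBs and in ceramide EBs. Apoe alone made up 99.4%, 98.3% and 99.2% of the summed TPM of the 10 genes in the same order. The other 9 genes summed to 12.6, 24.8 and 21.8 TPM. In a whole-EB library, fewer cells of a type and less RNA per cell cannot be told apart.

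**Figure D1:**
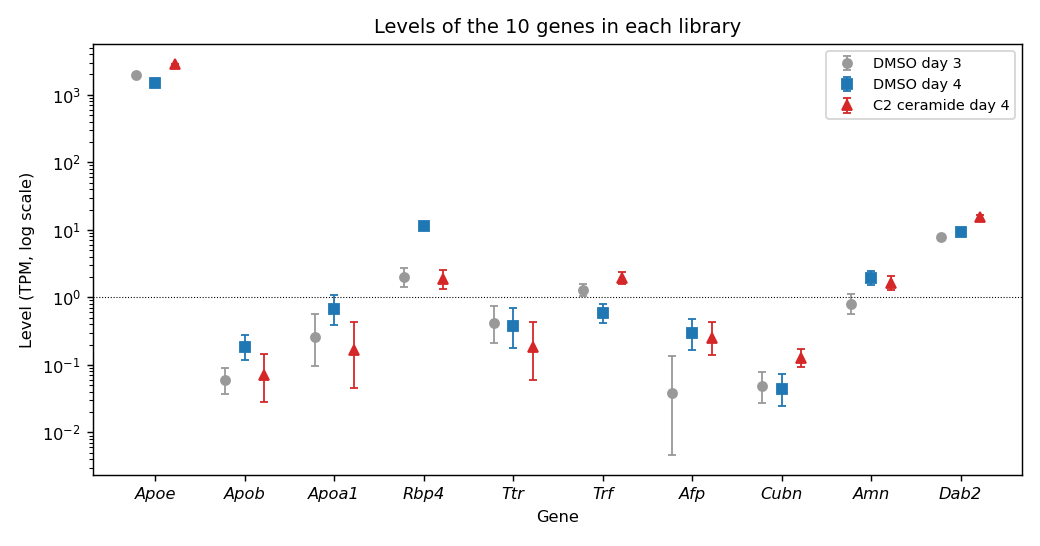
Level of each of the 10 genes (TPM, log scale) in the 3 libraries, with grey circles for day 3 DMSO EBs, blue squares for day 4 DMSO EBs and red triangles for ceramide EBs, and bars for the 95% Poisson interval of the counts. Apoe lies at 1471 TPM or more in each library, Dab2 between 7.70 and 15.5 TPM, and Afp, Ttr, Apoa1, Apob and Cubn below 1 TPM, which the dotted line marks.

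Rbp4 and Dab2 each have a pair of annotated start sites, and their reads were split unevenly between them. The bases before each start are shown because the levels of both genes below are given by start. They are from the RefSeq promoter table of GRCm38.p6, limited to the longest run without an exon of GENCODE M21 within the 250 bases before the start. Such a run can end short of the start. Capitals mark GATAA, the core of sites for GATA factors, GTTAA, a short AT-rich motif, or TATAAA, the TATA box, on either strand. The upstream start of Rbp4 is at base 38125321 and the downstream start at base 38124811 of chromosome 19, on the minus strand. Those of Dab2 are at bases 6299789 and 6386748 of chromosome 15, on the plus strand.
Rbp4 upstream, chr19:38125322-38125571: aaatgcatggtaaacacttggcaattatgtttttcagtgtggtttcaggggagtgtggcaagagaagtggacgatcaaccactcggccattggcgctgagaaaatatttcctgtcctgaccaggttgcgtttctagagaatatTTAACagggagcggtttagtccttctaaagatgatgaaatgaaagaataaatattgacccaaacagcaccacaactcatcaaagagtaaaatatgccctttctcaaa
Rbp4 downstream, chr19:38124829-38124954: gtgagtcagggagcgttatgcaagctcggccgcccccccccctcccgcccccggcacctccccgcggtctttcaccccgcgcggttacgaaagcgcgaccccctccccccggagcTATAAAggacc
Dab2 upstream, chr15:6299539-6299787: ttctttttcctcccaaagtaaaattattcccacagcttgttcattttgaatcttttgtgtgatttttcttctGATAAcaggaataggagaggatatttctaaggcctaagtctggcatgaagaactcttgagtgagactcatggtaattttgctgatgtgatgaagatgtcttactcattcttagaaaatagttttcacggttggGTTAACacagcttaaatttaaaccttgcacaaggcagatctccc
Dab2 downstream, chr15:6386498-6386597: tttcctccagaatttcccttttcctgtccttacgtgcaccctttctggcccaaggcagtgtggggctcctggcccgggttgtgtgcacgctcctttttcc

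The window before the downstream Rbp4 start held 1 TATAAA and ends short of that start. Of 32851 promoter windows of 126 bases, 6.62% held TATAAA. Those comparison windows lie directly before each start and were not limited by exons, so this share is not of like windows. The window before the upstream Rbp4 start held 1 GTTAA and no TATAAA, and that before the upstream Dab2 start held 1 GATAA and 2 overlapping GTTAA on opposite strands. Among all windows of 250 bases, 21.7% held GTTAA and 22.6% held GATAA. No match was found in the 100 bases of the downstream Dab2 window. That window ends at base 6386597, and the bases from there to the start at 6386748 were not searched. The GC content was 71.4% before the downstream and 40.8% before the upstream Rbp4 start, and 57.0% and 36.5% in the same order for Dab2. A match describes these letters only.

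Rbp4 was the one gene of the 10 whose counting interval lay beyond 2-fold in both comparisons with day 4 DMSO EBs. It encodes retinol-binding protein 4, the secreted carrier of vitamin A in plasma, and occupies bases 38116629 to 38125281 of chromosome 19 (GRCm38, as all positions here). Its level was 1.98 TPM in day 3 DMSO EBs, 11.4 TPM in day 4 DMSO EBs and 1.85 TPM in ceramide EBs, from 39, 238 and 38 counts. Day 4 DMSO EBs were thus 5.77-fold above day 3 DMSO EBs, a log2 fold change of 2.53 (95% counting interval, CI, 2.04 to 3.06). In ceramide EBs the log2 fold change to day 4 DMSO EBs was −2.63 (CI −3.16 to −2.13), and to day 3 DMSO EBs −0.10 (CI −0.78 to 0.58). Rbp4 was thus high in 1 library and alike, within counting error, in the others. These intervals cover counting error in the libraries and not variation between cultures, and reads copied by PCR from 1 molecule are not independent.

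By start site, the downstream start of Rbp4 carried 39, 183.9 and 38 counts in day 3 DMSO EBs, day 4 DMSO EBs and ceramide EBs, and the upstream start 0, 54.1 and 0 counts. The upstream start was therefore seen in day 4 DMSO EBs alone, at 1.99 of the 11.4 TPM. The split of reads between overlapping transcripts is the authors' estimate. On the downstream transcript of 937 bases alone, the log2 fold change was 2.18 for day 4 DMSO EBs over day 3 DMSO EBs and −2.28 for ceramide relative to day 4 DMSO EBs. The genes nearest to Rbp4 in both ratios were Cd82, which encodes a tetraspanin, and Mogat2, which encodes an acyltransferase of triacylglycerol synthesis. Their distances on the log2 scale were 0.103 and 0.152, over 3 libraries and among 11178 protein-coding genes. Mogat2 was at 6.36, 33.2 and 5.18 TPM.

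Stra6, which encodes the membrane receptor for Rbp4, was at 0.551, 0.587 and 0.228 TPM from 47, 53 and 20 counts. Its log2 fold change in ceramide EBs was −1.36 (CI −2.18 to −0.60), while day 4 DMSO EBs were close to day 3 DMSO EBs at 0.09 (CI −0.50 to 0.69). Stra6 was thus lower in ceramide EBs than in day 4 DMSO EBs, and alike within counting error in both DMSO libraries.

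Trf showed the opposite order. It encodes transferrin, the plasma carrier of iron, and occupies bases 103204001 to 103230444 of chromosome 9. Its level was 1.31 TPM in day 3 DMSO EBs, 0.593 TPM in day 4 DMSO EBs and 1.94 TPM in ceramide EBs, from 94, 40 and 105 counts. The log2 fold change was −1.14 (CI −1.71 to −0.59) for day 4 DMSO EBs over day 3 DMSO EBs and 1.71 (CI 1.17 to 2.27) for ceramide relative to day 4 DMSO EBs. Day 4 DMSO EBs were lowest, and ceramide EBs had 1.49 times the TPM of day 3 DMSO EBs. In counts per library total the last difference nearly vanished, with a log2 fold change of 0.09. In the same counts, ceramide relative to day 4 DMSO EBs gave 1.38 (CI 0.85 to 1.95), an interval that reaches within 2-fold. A retained-intron transcript of 433 bases, given 2.81 counts in ceramide EBs and 0 in both others, accounted for 0.572 of the 1.94 TPM. The full-length coding transcript of 2571 bases was at 1.31, 0.0889 and 1.37 TPM, since most Trf counts of day 4 DMSO EBs (33.4 of 40) were assigned to a coding transcript of 2339 bases that had 0 counts in the other libraries. Tfrc, which encodes the transferrin receptor and is not one of the 10 genes, was at 66.4, 45.3 and 34.0 TPM. The genes nearest to Trf in both ratios were Dtx4, an E3 ubiquitin ligase gene, and Gata2, a transcription factor gene of blood progenitors, at distances of 0.0588 and 0.0728 among 11061 genes.

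Apoe, the most abundant of the 10 genes, was highest in ceramide EBs. It encodes apolipoprotein E, a lipoprotein component and ligand of lipoprotein receptors that many cell types make, and occupies bases 19696109 to 19699188 of chromosome 7. Its level was 1948 TPM in day 3 DMSO EBs, 1471 TPM in day 4 DMSO EBs and 2875 TPM in ceramide EBs, from 46675, 35989 and 70720 counts. By TPM it ranked 65, 92 and 27 among all genes in the same order. The log2 fold change was −0.41 (CI −0.43 to −0.39) for day 4 DMSO EBs over day 3 DMSO EBs and 0.97 (CI 0.95 to 0.99) for ceramide relative to day 4 DMSO EBs, just inside 2-fold. The coding transcript with the highest level, of 1104 bases, was at 1350, 1020 and 2043 TPM, just outside it. At this depth counting error was small, and variation between cultures was not measured. Apoc1, the neighbouring apolipoprotein gene of the same cluster, was at 73.6, 60.8 and 62.3 TPM, with a log2 fold change of 0.03 (CI −0.20 to 0.27) for ceramide relative to day 4 DMSO EBs. Nearest to Apoe in both ratios were Ranbp17, a nuclear transport receptor gene, and Txlng, at distances of 0.0079 and 0.0208 among 10470 genes.

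Apob and Apoa1, which encode the structural proteins of very-low-density and high-density lipoprotein, were near the limit of detection. Apoa1, on chromosome 9 from 46228580 to 46230466, was at 0.261, 0.676 and 0.167 TPM from 6, 16 and 4 counts. In ceramide EBs its log2 fold change to day 4 DMSO EBs was −2.02 (CI −4.06 to −0.38), and day 4 DMSO EBs over day 3 DMSO EBs gave 1.37 (CI −0.05 to 3.01), which includes no difference. Apob, on chromosome 12 from 7977648 to 8016835, was at 0.059, 0.186 and 0.071 TPM from 22, 23 and 7 counts. Its TPM was 3.15-fold higher in day 4 DMSO EBs than in day 3 DMSO EBs although the counts were nearly equal, with a log2 fold change of counts per library total of 0.0028 (CI −0.91 to 0.91). The libraries differed in the transcript assigned. In day 4 DMSO EBs, 3.48 counts went to a transcript of 1118 bases, which gave 0.134 of the 0.186 TPM, while all 22 counts of day 3 DMSO EBs went to one of 13369 bases. In ceramide EBs, Apob had fewer counts than in either DMSO library, with a log2 fold change of counts of −1.72 to each of them (CI −3.19 to −0.44 against day 3 DMSO EBs).

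**Figure D2:**
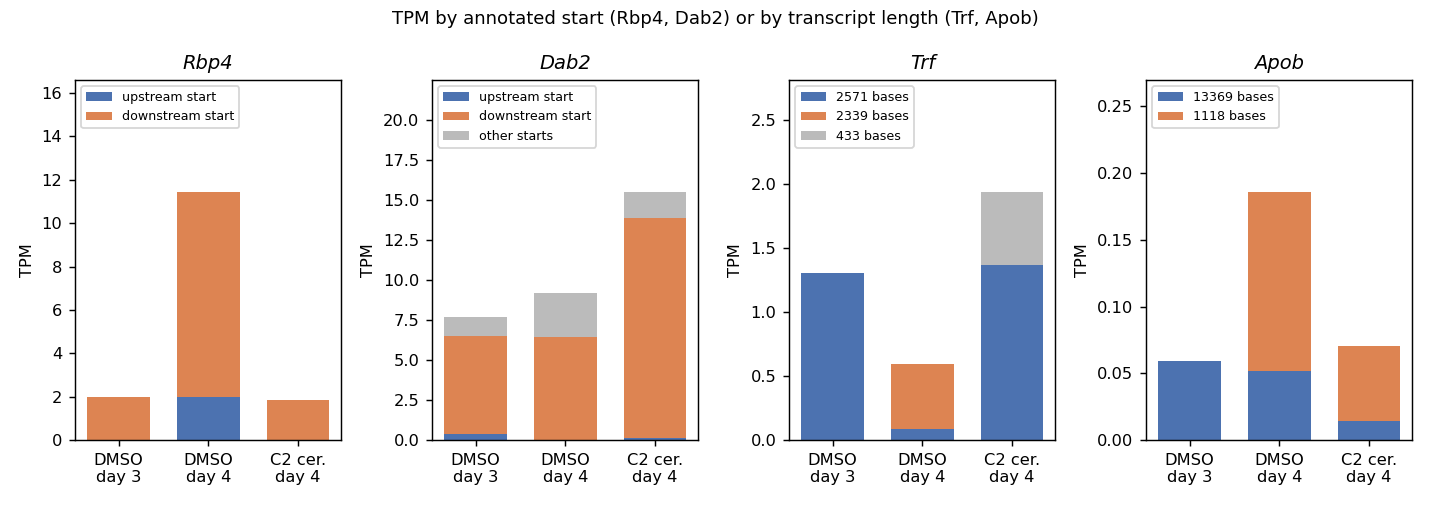
Stacked TPM by annotated start site for Rbp4 and Dab2 and by transcript length for Trf and Apob in the 3 libraries. Rbp4 is highest in day 4 DMSO EBs with 1.99 TPM from the upstream start, nearly all of Dab2 is from the downstream or other starts, and the 1118-base transcript makes up most of Apob in day 4 DMSO EBs.

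Ttr and Afp, secreted carriers in plasma, also had few counts. Ttr, on chromosome 18 from 20665280 to 20674321, encodes transthyretin, which binds thyroid hormone and Rbp4, and was at 0.423, 0.375 and 0.185 TPM from 11, 10 and 5 counts. Its TPM ratio of 0.493 between ceramide and day 4 DMSO EBs was just past the 0.5-fold threshold, and the interval of the log2 fold change, −2.92 to 0.66, included no difference. Afp encodes alpha-fetoprotein, the fetal relative of albumin, and occupies bases 90490737 to 90508907 of chromosome 5. Its level was 0.038, 0.295 and 0.254 TPM from 2, 16 and 14 counts, so both day 4 libraries were above day 3, with log2 fold changes of 2.96 (CI 0.87 to 6.12) and 2.74 (CI 0.62 to 5.92). Between both day 4 libraries the log2 fold change was −0.22 (CI −1.36 to 0.91). Alb, the neighbour of Afp, which encodes albumin, had 1, 0 and 1 counts.

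Among the endocytic genes, Cubn and Dab2 were higher in ceramide EBs than in day 4 DMSO EBs beyond their counting error, and Amn was not. Cubn encodes cubilin, the ligand-binding receptor, and occupies bases 13276338 to 13491813 of chromosome 2. Its level was 0.048, 0.044 and 0.127 TPM from 16, 15 and 44 counts, and the log2 fold change of ceramide EBs over day 4 DMSO EBs was 1.53 (CI 0.66 to 2.48). Over day 3 DMSO EBs it was 1.40 (CI 0.55 to 2.33), so ceramide EBs were above both DMSO libraries. Amn encodes amnionless, the membrane anchor that carries cubilin to the cell surface, and occupies bases 111271095 to 111276426 of chromosome 12. Its level was 0.806, 1.96 and 1.66 TPM from 34, 72 and 72 counts, higher in both day 4 libraries than in day 3 DMSO EBs, with log2 fold changes of 1.28 (CI 0.67 to 1.91) and 1.04 (CI 0.43 to 1.67). A retained-intron transcript held 13.1 of the 72 counts of day 4 DMSO EBs, which left the coding transcript with 0.806, 1.36 and 1.66 TPM.

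Dab2, which encodes the clathrin adaptor that links cubilin and megalin to endocytosis, occupies bases 6299788 to 6440712 of chromosome 15. Its level was 7.70 TPM in day 3 DMSO EBs, 9.21 TPM in day 4 DMSO EBs and 15.5 TPM in ceramide EBs, from 653, 648 and 1267 counts. The log2 fold change of ceramide EBs over day 4 DMSO EBs was 0.75 (CI 0.61 to 0.89) in TPM and 0.96 (CI 0.82 to 1.10) in counts per library total. Transcripts of the downstream start, whose bases are printed above, carried 580.6, 587.4 and 1244 counts, and those of the upstream start 8.99, 0 and 5.43. Thus nearly all Dab2 counts placed at either of these starts were at the downstream one in each library. Transcripts of other starts carried 63.4, 60.6 and 17.9 counts. In TPM, the downstream start was at 6.12, 6.43 and 13.8, and other starts were at 1.18, 2.78 and 1.62. Of the TPM of other starts in day 4 DMSO EBs, 1.80 came from a transcript of 393 bases that was given 6.86 counts. Nearest to Dab2 in both ratios were Hmces and Nup62cl, at distances of 0.0233 and 0.0462 among 10470 genes.

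Lrp2, which encodes megalin, the large endocytic receptor that works together with cubilin, differed in the same direction as Cubn between the day 4 libraries, and its interval did not overlap that of Cubn. It was at 1.02 TPM in day 3 DMSO EBs, 0.180 TPM in day 4 DMSO EBs and 2.54 TPM in ceramide EBs, from 482, 87 and 1200 counts. The log2 fold change was −2.50 (CI −2.85 to −2.17) in day 4 DMSO EBs and 3.82 (CI 3.50 to 4.15) between the day 4 libraries. Lrpap1, which encodes the chaperone of that receptor family, was at 78.3, 93.3 and 145 TPM, a log2 fold change of 0.63 (CI 0.59 to 0.68) in ceramide EBs. Of 13 endocytic receptor and partner genes, 1 was higher in ceramide EBs than in day 4 DMSO EBs by more than 2-fold, 1 was lower and 11 were between, with a median log2 fold change of −0.37. Over all genes in use, 9.97% were higher and 12.3% were lower, with a median of −0.03.

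Ordered by TPM, Apoe was first in every library, and Dab2 was second in day 3 DMSO EBs and in ceramide EBs, where Rbp4 came next or after Trf. In day 4 DMSO EBs Rbp4 was second, above Dab2, and the counting intervals of that pair did not overlap. Of the 9 pairs of neighbours in this order, 6 had overlapping intervals in day 3 DMSO EBs, 4 in day 4 DMSO EBs and 6 in ceramide EBs. Rbp4 and Trf could not be ordered in day 3 DMSO EBs or in ceramide EBs, and nor could Ttr and Apoa1.

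**Figure D3:**
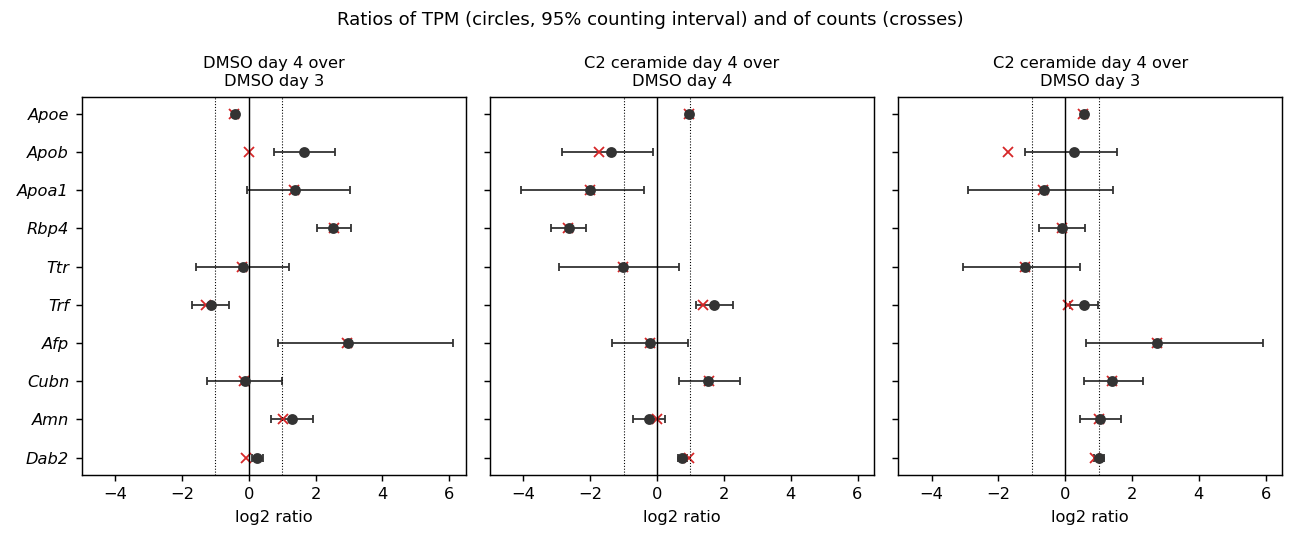
log2 TPM ratios of the 10 genes with their 95% counting intervals (circles and bars) and log2 fold changes of counts per library total (crosses) in the 3 comparisons, with dotted lines at 2-fold in either direction. Rbp4 is high at left and low in the centre, Trf is the reverse, and the cross of Apob lies apart from its circle at left and right.

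By the 2-fold thresholds of the study's methods, 5 of the 10 genes (Afp, Apoa1, Apob, Amn and Rbp4) were higher in day 4 DMSO EBs than in day 3 DMSO EBs, where 12.8% of the 17655 genes in use were higher. In the other direction 1 of the 10 (Trf) was lower, where 9.45% of genes were. The interval of Apoa1 included no difference, and Apob was not higher in counts per library total. With TMM or DESeq2 scaling of the counts, Afp, Apoa1 and Rbp4 were the 3 genes more than 2-fold higher, and Trf stayed more than 2-fold lower. Apob was not past 2-fold, and Amn missed it narrowly, at log2 fold changes of 0.985 and 0.992. The median log2 fold change of the 10 genes was 0.77, beside 0.05 over all genes. Between ceramide and day 4 DMSO EBs, Cubn and Trf were higher, 2 of the 10, against 9.97% of all genes. Ttr, Apoa1, Apob and Rbp4 were lower, 4 of the 10, against 12.3%, with a median log2 fold change of −0.23 beside −0.03 over all genes. Of these 4, Ttr had an interval that included no difference. Between ceramide EBs and day 3 DMSO EBs, 4 of the 10 genes (Afp, Amn, Cubn and Dab2) were higher, against 11.2%, and 1 (Ttr) was lower, against 9.39%, with a median of 0.57 beside 0.03 over all genes. The interval of Ttr, −3.07 to 0.45 on the log2 scale, again included no difference. Dab2 and Amn were only just past the threshold here, with TPM ratios of 2.01 and 2.06. Dab2 fell within 2-fold by counts per library total, TMM or DESeq2, and Amn did so with TMM. The comparisons share libraries, so they are not independent of each other. An alternative chosen after seeing the data was limited to the 5 genes with at least 50 counts in a library. There, Amn and Rbp4 were higher in day 4 DMSO EBs than in day 3 DMSO EBs, and Trf was lower. In ceramide EBs against day 4 DMSO EBs, Trf was higher and Rbp4 was lower. Rbp4 passed this filter through day 4 DMSO EBs alone, and Amn through the day 4 libraries alone. Their calls are therefore partly set by the filter, and no share over all genes is given for it.

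Transcription factor genes of visceral and other endoderm were mostly highest in day 4 DMSO EBs. Of 8 such genes, 7 were higher in day 4 DMSO EBs than in day 3 DMSO EBs and 1 was lower, with a median log2 fold change of 6.65, or 4.12 when genes without counts in a library were set to 3 counts there. In ceramide EBs 7 were lower than in day 4 DMSO EBs and 1 was higher, with a median of −4.82. Over all genes in use, 12.8% were higher and 9.45% lower in the former comparison, and 9.97% higher and 12.3% lower in the latter. Foxa1, a forkhead gene of endoderm, was counted 14, 334 and 0 times, and it was at least 112-fold lower in ceramide EBs than in day 4 DMSO EBs, taking 3 counts per library as the floor. Sox17 and Gata6, regulators of endoderm, were at 0.515, 254 and 2.26 TPM and at 0.087, 37.7 and 0.775 TPM. Sox7, which is expressed in primitive and parietal endoderm, was the exception at 0.255, 0.108 and 0.805 TPM. Between ceramide EBs and day 3 DMSO EBs, 5 of the 8 were higher, 2 were lower and 1 was within 2-fold, against 11.2% higher and 9.39% lower of all genes. The median log2 fold change was 1.90, or 1.85 with the same setting for genes without counts.

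Most markers of definitive endoderm and of anterior visceral endoderm were also highest in day 4 DMSO EBs. The definitive endoderm list shares Foxa2 and Sox17 with the transcription factor genes, and Cer1 and Gsc with the anterior visceral endoderm list. These lists are therefore not independent of each other. Of 10 definitive endoderm genes, 8 were higher in day 4 DMSO EBs and 9 were lower in ceramide EBs than in day 4 DMSO EBs. Over all genes in use these shares were 12.8% and 12.3%. The list summed to 2673, 3154 and 984 TPM, most of it from Trh. Cxcr4, a chemokine receptor gene of migrating endoderm and mesoderm, had 4, 354 and 3 counts, and Pyy, a gut hormone gene, had 30, 51 and 0. Of 10 anterior visceral endoderm genes, 6 were lower and 1 was higher in ceramide EBs, against 12.3% and 9.97% of all genes. That list summed to 306, 839 and 235 TPM. Cer1, which encodes a secreted Nodal and BMP antagonist, had 1, 14465 and 25 counts, and Dkk1, a Wnt antagonist gene, had 10, 1861 and 43. Lhx1, a homeobox gene of this endoderm and of the streak, had 11, 10418 and 41 counts. Gsc, a further homeobox gene, was at 3.70, 66.1 and 2.13 TPM. In day 4 DMSO EBs no gene of these lists was at 0 counts. The part of either cell type in the Rbp4 values was not tested.

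Other visceral endoderm markers split in both directions. Of 14 in use, 7 were higher in day 4 DMSO EBs than in day 3 DMSO EBs, against 12.8% of all genes. In ceramide EBs 6 were lower and 3 were higher than in day 4 DMSO EBs, against 12.3% and 9.97%. The median log2 fold change of the latter comparison was −0.61, beside −0.03 over all genes. Spink1, a secreted protease inhibitor gene, was at 1.43, 15.3 and 1.29 TPM, a log2 fold change of −3.57 (CI −4.38 to −2.85) in ceramide EBs. Its order of libraries was that of Rbp4. Ihh, the hedgehog ligand gene of visceral endoderm, was highest in ceramide EBs, with 0, 5 and 64 counts and a log2 fold change of 3.69 (CI 2.40 to 5.37). Among the genes called higher there, Ihh and S100g, which had 3, 4 and 14 counts, were in use through the ceramide library alone. Entpd2, an ectonucleotidase gene, had 46, 76 and 6 counts, and Bmp2, a BMP ligand gene also of cardiac mesoderm, had 13, 782 and 47.

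Of 15 lipoprotein assembly genes 10 were in use. In ceramide EBs 2 were higher, 1 was lower and 7 were within 2-fold of day 4 DMSO EBs, with a median log2 fold change of 0.10. Over all genes in use, 9.97% were higher and 12.3% were lower. Abca1, the cholesterol exporter gene that loads lipid onto apolipoproteins, was at 0.091, 0.083 and 0.632 TPM, a log2 fold change of 2.93 (CI 2.32 to 3.59). Apobec1, the gene of the enzyme that edits Apob mRNA, was at 0.501, 0.348 and 2.06 TPM, a log2 fold change of 2.57 (CI 1.71 to 3.56). Pltp, a phospholipid transfer protein gene, was at 84.0, 39.2 and 66.3 TPM, and Dgat1, a triacylglycerol synthesis gene, at 19.4, 27.8 and 22.8 TPM. Mttp, which loads lipid onto Apob protein, was at 4.40, 5.45 and 4.54 TPM. Apoa4 and Apoc3 had 0 counts in every library. Apoa2, the gene called lower, had 9, 17 and 1 counts and was in use through day 4 DMSO EBs alone.

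**Figure D4:**
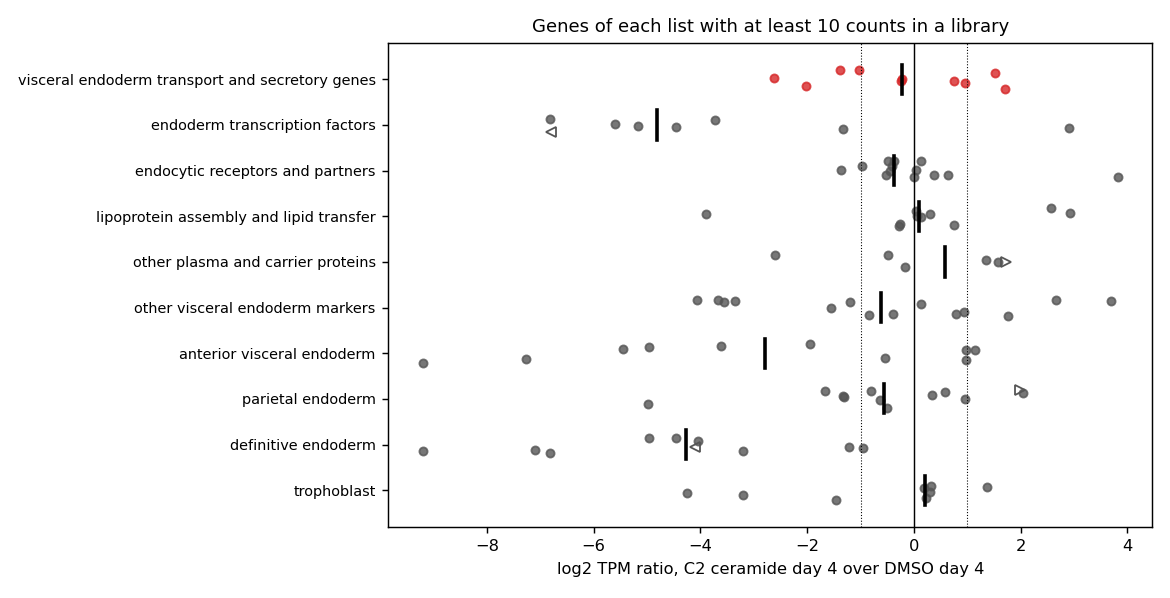
log2 TPM ratio of ceramide EBs over day 4 DMSO EBs for every gene in use of each list, with the 10 transport and secretory genes in red. Open triangles are genes with 0 counts in 1 of the libraries, drawn at their bound against 3 counts, black bars are medians with such genes at the bound, and the medians are −0.23 for the 10 genes, −4.82 for the endoderm transcription factors and −4.28 for definitive endoderm.

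Other plasma and carrier protein genes, like Afp and Ttr, mostly had few counts. Of 15 such genes 6 were in use, and 4 had 0 counts in every library (Hpx, Rbp2, Serpina1a and Serpina1b). In ceramide EBs 3 were higher (Ahsg, Cp and Serpinf1) and 1 was lower than in day 4 DMSO EBs, against 9.97% and 12.3% of all genes in use. Ahsg had 0, 7 and 19 counts and Cp had 0, 0 and 10, so both were in use through the ceramide library alone. The number of higher genes is therefore partly set by the filter. Serpinf1, which encodes a secreted serpin, had 20, 36 and 130 counts and was at 0.413, 1.10 and 3.27 TPM, a log2 fold change of 1.57 (CI 1.03 to 2.15) in ceramide EBs.

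Of 12 parietal endoderm genes, which mark the migrating endoderm along the outer basement membrane, 2 were higher and 4 were lower in ceramide EBs than in day 4 DMSO EBs. Over all genes in use, 9.97% were higher and 12.3% were lower. Pdgfra, a growth factor receptor gene shared with mesoderm, was at 0.216, 10.1 and 0.318 TPM, and Pth1r, the parathyroid hormone receptor gene, at 1.55, 11.8 and 3.71 TPM. Fst, the follistatin gene, was at 120, 224 and 88.8 TPM, and Srgn, a proteoglycan gene, at 1.13, 1.28 and 5.26 TPM. The 2 higher genes were Srgn and Thbd, and Thbd, with 5, 0 and 12 counts, was in use through the ceramide library alone. The list summed to 301, 470 and 457 TPM, of which Sparc, within 2-fold between the day 4 libraries, gave 133, 158 and 306 TPM. For trophoblast, 8 of 10 genes were in use, and 1 was higher and 3 were lower in ceramide EBs, against the same shares. The defining genes Elf5 and Prl3d1 had at most 6 counts in a library. The list summed to 61.9, 140 and 68.8 TPM. Hand1, shared with mesoderm, was at 0.149, 6.61 and 0.347 TPM, and Cdx2, shared with the posterior streak, at 0.945, 7.68 and 2.79 TPM. Eomes, shared with mesendoderm, was at 25.2, 84.7 and 9.24 TPM. Esrrb, shared with ES cells, was higher in ceramide EBs, with a log2 fold change of 1.37 (CI 1.20 to 1.54). The part of these cell types in the values of the 10 genes was not tested.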

How the data were processed

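RNA of 3 EB cultures, 1 library per condition, was amplified as cDNA by SMART-Seq and read on an Illumina NovaSeq instrument. The authors used DRAGEN with GRCm38 and GENCODE M25 and deposited gene and transcript tables with TPM values and estimated counts, which are expected counts, not whole and not normalized. Ratios are of TPM, with a TPM of 0 set to 0.001. Genes with at least 10 counts in a library were used, 17655 of 55487. A gene can reach 10 counts in 1 library alone, and it then tends to be higher there. For a ratio, the 95% interval was computed by the Clopper-Pearson method on the rounded counts, given both library totals, and centred on the ratio in TPM. For a level it is Poisson. No test between conditions was possible. Transcripts were assigned to a RefSeq start within 200 bases. Annotated genes that overlap Cubn, Afp or Dab2 had at most 6 counts, and whether the counting used strand is not given in the sources used here.

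All 10 genes are named. Of each other list, the 4 genes with the largest ratio in either direction between ceramide and day 4 DMSO EBs among those with at least 50 counts are named. For each of the 10 with at least 100 counts in a library, the 2 nearest genes are those with the smallest distance in the plane of both log2 TPM ratios that share day 4 DMSO EBs, among protein-coding genes with at least 100 counts where it has them. Some genes that this rule names are not reported here. Mttp, Alb, Apoc1, Tfrc, Hnf4a, Sox7 and Sparc were named after their values were seen. The genes and lists were chosen with earlier results of these data known.

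Python 3.11.15, NumPy 2.4.6, pandas 2.3.3, SciPy 1.17.1 and Matplotlib 3.10.9 were used. Alternatives were pseudocounts of 0.1 and 1 TPM, other filters, counts per library total, TMM scaling (edgeR 4.0.16) and DESeq2 1.42.0 size factors in R 4.3.3, sums of transcripts, the most abundant coding transcript, and other thresholds. The steps were tested on simulated data. Those data held counting error alone, and changes were set only in genes with a mean of at least 100 counts. They therefore do not cover variation between cultures, the assignment of reads to transcripts, or calls at low counts.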

Additional observations from a re-analysis of the deposited data

How the results depend on the processing

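No paired analysis was possible because each condition had 1 library, and for the same reason none could be left out. The number of genes past 2-fold moved with the treatment of low values, and 5 of the 10 genes never reached 50 counts. Shares over all genes are given for 2-fold and at least 10 counts only. The numbers below at other settings therefore cannot be judged against those shares. In the order higher and lower, the numbers as reported were 5 and 1 for day 4 DMSO EBs over day 3 DMSO EBs, 2 and 4 for ceramide relative to day 4 DMSO EBs, and 4 and 1 for ceramide relative to day 3 DMSO EBs. With 1 TPM added they were 1 and 0, 0 and 1, and 0 and 0, and Rbp4 was the gene left in both comparisons that kept any. With 0.1 TPM added they were 4 and 1, 1 and 2, and 1 and 0. With at least 100 counts in a library they were 1 and 1, 1 and 1, and 1 and 0, and with at least 50, an alternative chosen after seeing the data, 2 and 1, 1 and 1, and 2 and 0. Rbp4 passed both of these filters through day 4 DMSO EBs alone, and Trf passed 100 counts through ceramide EBs alone. At 4-fold they were 2 and 0, 0 and 2, and 1 and 0. At 1.5-fold, 4 were higher in ceramide EBs than in day 4 DMSO EBs (Apoe and Dab2 were added), and 2 were lower than in day 3 DMSO EBs. With TMM or DESeq2 scaling, 3 were higher in day 4 DMSO EBs. Against day 3 DMSO EBs, 2 were lower in ceramide EBs by counts per library total, TMM or DESeq2, and 2 were higher with TMM. On the most abundant coding transcript, 4 were higher in ceramide EBs than in day 4 DMSO EBs. Limited to genes whose interval excludes no difference, 0 were lower in ceramide EBs than in day 3 DMSO EBs. Apob in day 4 DMSO EBs over day 3 DMSO EBs reversed, from a log2 fold change of 1.66 to −0.033 with TMM, −0.0265 with DESeq2, and −0.20 without transcripts under 1500 bases, an alternative added after seeing the data. In that alternative 3 were higher in day 4 DMSO EBs, and 2 were lower in ceramide EBs than in day 3 DMSO EBs. Leaving out the filters, which cannot move a single gene's ratio, 240 ratios were recomputed, of which 193 lay inside the counting interval of the reported ratio and 47 outside it or with a reversed call. The sign changed in 14, which were 3 of Apob and 3 of Dab2 for day 4 over day 3 DMSO EBs, 4 of Amn for ceramide against day 4 DMSO EBs and 4 of Apob for ceramide against day 3 DMSO EBs. Of these, the ratio of Apob for day 4 over day 3 DMSO EBs was past 2-fold as reported, and the others were within it. Depth limits the values of Afp, Ttr, Apoa1, Apob and Cubn, with at most 44 counts, and replicates would be needed for any of the 10.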
